A study of Rattus norvegicus and Homo sapiens with 12 samples.

Results

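Nuclear long noncoding RNAs and the spliced transcripts that carry small nucleolar RNAs (snoRNAs) were followed in DU145, a human prostate cancer cell line. The members were 10 of the 60107 genes in the human count table. They comprised MALAT1, NEAT1 and KCNQ1OT1, which stay in the nucleus, TUG1, and the snoRNA hosts GAS5, SNHG1, SNHG5, SNHG8, SNHG12 and ZFAS1. The 10 genes were selected on measured values, with their F2 against F0 differences known, so those differences are a description here and carry no test.

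F0 DU145 was the parental population, grown in DMEM with 10% FBS, and F2 DU145 was the population recovered after repeated exposure to conditioned media (CM) from human mesenchymal stem cells (MSCs) bought from a supplier. The labels give 2 rounds of 72 h in MSC CM, whereas the description of the series gives 3 rounds. Each population had 3 libraries, and whether the 3 F2 samples came from separate selections is not stated, so the spread between samples may be that of cultures of a single selected population. Libraries were made with QuantSeq, in which oligo(dT) primes cDNA at A-rich sequence and each primed transcript yields a fragment near its 3′ end.

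MALAT1 is an abundant transcript held in nuclear speckles, bodies rich in splicing factors. NEAT1 is the architectural RNA of paraspeckles. Its long form builds the body, and its short form shares the same start and ends at an upstream polyadenylation site. KCNQ1OT1 runs antisense to KCNQ1 and silences neighbouring imprinted genes on the paternal chromosome. TUG1 is found in both nucleus and cytoplasm. In a snoRNA host the introns carry the snoRNAs, which guide chemical modification of ribosomal and spliceosomal RNA, and the spliced exons are mostly exported and removed by nonsense-mediated decay (NMD). Many hosts start with a 5′ terminal oligopyrimidine (TOP) tract, a C followed by a run of C and T, as the mRNAs of ribosomal proteins do.

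In GENCODE release 29 on GRCh38, MALAT1 (ENSG00000251562) occupied chr11:65497688-65506516 on the plus strand, and NEAT1 (ENSG00000245532) lay upstream of it at chr11:65422774-65445540 on the same strand. KCNQ1OT1 (ENSG00000269821) was a single-exon gene at chr11:2608328-2699994 on the minus strand. Of the hosts, SNHG1 (ENSG00000255717) lay at chr11:62851988-62855914 on the minus strand, SNHG12 (ENSG00000197989) at chr1:28578538-28583132 on the minus strand and ZFAS1 (ENSG00000177410) at chr20:49278178-49295738 on the plus strand. GAS5 (ENSG00000234741), SNHG5 (ENSG00000203875), SNHG8 (ENSG00000269893) and TUG1 (ENSG00000253352) lay on chromosomes 1, 6, 4 and 22.

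Because the assay primes on A-rich sequence, the longest run of A in the transcripts of each nuclear member is shown in capitals with 15 bases on either side, 5′ to 3′, from GENCODE release 29 (GRCh38). The MALAT1 run lies toward the 3′ end of the transcript, which is 8708 bases long, in the A-rich tract at which the mature RNA is cut from its tRNA-like tail, so this RNA carries an encoded A run in place of an added poly(A) tail. The NEAT1 run lies inside the long form, beyond the end of the short form. The coordinates are chr11:65506083-65506125 on the plus strand for MALAT1-202, chr11:65440828-65440879 on the plus strand for NEAT1-202 and chr11:2610702-2610760 on the minus strand for KCNQ1OT1-201.
MALAT1-202: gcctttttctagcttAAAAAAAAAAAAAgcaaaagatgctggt
NEAT1-202: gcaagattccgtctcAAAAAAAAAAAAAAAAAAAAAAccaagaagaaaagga
KCNQ1OT1-201: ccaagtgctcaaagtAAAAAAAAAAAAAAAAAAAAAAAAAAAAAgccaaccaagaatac

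Encoded A runs were longer in the 3 nuclear members than in 5 of the 6 hosts, and where the fragments were primed was not measured. A run of 12 A or more was present in at least 1 transcript of MALAT1, NEAT1, KCNQ1OT1 and TUG1, and among the 6 hosts only in SNHG5, against 23.9% of the 14195 tested genes with GENCODE transcripts. The longest A run was 13 bases in MALAT1, 22 in NEAT1, 29 in KCNQ1OT1 and 18 in TUG1. It was 8 bases in GAS5, 6 in SNHG1 and SNHG12, 5 in SNHG8, 4 in ZFAS1 and 14 in SNHG5. The last 40 bases of a transcript of the short NEAT1 form and of 3 hosts are shown with the polyadenylation signal AATAAA in capitals, since these ends are where a tail is added. Their coordinates are chr11:65426474-65426513 (plus strand), chr11:62851991-62852030 (minus), chr1:28578541-28578580 (minus) and chr20:49295699-49295738 (plus), in the order printed.
NEAT1-208: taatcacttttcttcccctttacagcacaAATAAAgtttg
SNHG1-205: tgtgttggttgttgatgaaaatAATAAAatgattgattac
SNHG12-211: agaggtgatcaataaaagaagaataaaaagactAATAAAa
ZFAS1-208: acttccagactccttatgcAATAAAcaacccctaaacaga

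Transcript starts are shown because the TOP tract of many hosts lies there. For each host the lowest-numbered annotated transcript that starts with C and at least 4 further bases that are each C or T is shown, with that initial tract in capitals, followed by the starts of the longest MALAT1 and NEAT1 transcripts, which lack it. The first exon is shown up to 40 bases. The host starts are at chr1:173867960-173867989 (minus strand), chr11:62855440-62855479 (minus), chr6:85678694-85678733 (minus), chr4:118278758-118278792 (plus), chr1:28581834-28581873 (minus) and chr20:49278642-49278681 (plus), and the nuclear ones at chr11:65497762-65497801 and chr11:65422798-65422837 (both plus).
GAS5-210: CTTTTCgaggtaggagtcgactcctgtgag
SNHG1-203: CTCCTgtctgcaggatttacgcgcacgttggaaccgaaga
SNHG5-202: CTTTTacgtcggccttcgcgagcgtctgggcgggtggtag
SNHG8-205: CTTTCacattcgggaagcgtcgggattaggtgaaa
SNHG12-202: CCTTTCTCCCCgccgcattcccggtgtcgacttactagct
ZFAS1-201: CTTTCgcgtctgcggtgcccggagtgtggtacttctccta
MALAT1-202: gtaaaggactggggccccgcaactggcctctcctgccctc
NEAT1-202: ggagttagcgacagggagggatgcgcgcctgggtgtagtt

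At least 1 transcript of each of the 6 hosts began with such a tract, and none of the 46 transcripts of MALAT1, NEAT1, KCNQ1OT1 and TUG1 did. By gene, this held for 16.1% of all tested genes, for 8 of the 21 other tested hosts (38.1%) and for 41 of 50 TOP mRNAs (82.0%). By transcript, the tract opened 18 of the 109 host transcripts (16.5%), 133 of the 680 transcripts of 50 TOP mRNAs (19.6%), and 3132 of the 120481 transcripts of all tested genes (2.60%). In SNHG1 it was 1 of 25 annotated transcripts, in GAS5 6 of 29, in SNHG5 3 of 23, in SNHG8 1 of 5, in SNHG12 4 of 17 and in ZFAS1 3 of 10. This definition was set after the sequences had been seen. The definition planned for promoter sequences was C and at least 6 further pyrimidines, beginning at most 10 bases into the transcript. It needs a longer tract but allows a later start. It was met by 2 of the 6 hosts (33.3%, SNHG12 and ZFAS1), by MALAT1 and TUG1, and by 45 of 50 TOP mRNAs. Of all tested genes, 30.1% met it on the sense strand and 38.5% on the opposite strand. Annotated starts are models and were not mapped in these cells.

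The 6 libraries were of like depth, with 15879480 to 16479239 counts in genes each. Reads outside genes made up 9.60% to 10.0% of uniquely placed reads in F0 and 11.3% to 11.9% in F2, ambiguous reads 1.49% to 1.502% and 1.36% to 1.40%, and mitochondrially encoded genes 5.71% to 6.003% and 10.2% to 10.6% of gene counts. All moved with the populations, and their part in the results was not tested. Epithelial keratins marked both populations, with KRT8 at 278 CPM (F0) and 328 CPM (F2) and KRT18 at 484 and 556 CPM, whereas KRT5, of basal cells, was at 0 in every library. CPM are counts per 1000000 after TMM scaling throughout. Of 22 MSC markers, 7 were at 0 in all 6 libraries, among them THY1, LUM and VCAM1, and 10 to 13 were at 0 in a given library. The summed level of the 22 markers was 215 to 239 CPM in F0 and 277 to 296 CPM in F2, mostly from NT5E (158 and 222 CPM). The 19 markers under 10 CPM in F0 summed to 16.8 to 19.1 CPM in F0 and 16.1 to 16.7 CPM in F2. The part of these markers in the results was not tested.

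MALAT1 and NEAT1 stood higher in F2, 3 of the 6 hosts were also higher, and TUG1, GAS5, SNHG5 and SNHG8 did not pass the threshold. With edgeR's quasi-likelihood test over all genes, 5 of the 9 tested members passed an adjusted p of 0.05 and all 5 were higher in F2. Over all 14316 tested genes 18.2% passed, 9.49% higher and 8.67% lower. Of the called genes 52.3% were higher (1358 higher, 1241 lower), but with library size alone in place of TMM 22.9% were (832 higher, 2805 lower), since that scaling set the median log2 fold change of all genes at -0.09. The same 5 members passed under it, and counts for each gene list are given under both scalings. Since the members were chosen on this contrast, the count describes the choice, and nothing is read from it. In bulk RNA a change in the share of cells that hold a transcript and a change in its amount per cell cannot be told apart.

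MALAT1 stood at 4710, 4531 and 4197 CPM in the F0 libraries and at 7360, 7664 and 7166 CPM in the F2 libraries. Every F2 library was above every F0 library. The means were 4479 ± 260.0 CPM (SD, n = 3) and 7397 ± 251 CPM (SD, n = 3), a 1.65-fold difference with a log2 fold change of 0.72 (SE 0.045). MALAT1 alone took 0.434% to 0.484% of all gene counts in F0 and 0.693% to 0.743% in F2. Of the tested genes, 2.51% had a larger log2 fold change.

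NEAT1 was at 204, 213 and 223 CPM in F0 and at 334, 325 and 356 CPM in F2, again without overlap. The means were 213 ± 9.60 CPM and 338 ± 15.8 CPM (SD, n = 3 each), which is 1.59-fold and 0.67 (SE 0.049) on the log2 scale. Counts are per gene, so the short form, the long form and internally primed fragments of NEAT1 were not separated. The ratio of MALAT1 to NEAT1 counts was 23.1, 21.2 and 18.8 in F0 and 22.0, 23.6 and 20.1 in F2. These ranges overlapped, and both transcripts differed between the populations by a similar factor, with standard errors that overlap.

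KCNQ1OT1 had 1 count in all 6 libraries together, in F0 replicate 3. It could not be tested, and a level under 3 counts, which is 0.177 to 0.195 CPM in these libraries, was not detectable at this depth. KCNQ1, the potassium channel gene that overlaps it on the opposite strand, had 7, 7 and 9 counts in F0 and 1, 15 and 3 counts in F2. Whether reads in the overlap of both genes were counted is not known, since the strand setting is not stated. The nuclear-retained set is therefore described by MALAT1 and NEAT1. CDKN1C, an imprinted cell cycle inhibitor of the same chromosomal domain, had means of 3.02 ± 0.273 CPM (F0) and 2.05 ± 0.277 CPM (F2, adjusted p = 0.088, edgeR).

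TUG1, at 41.8, 43.4 and 39.4 CPM in F0 and 42.9, 40.8 and 41.8 CPM in F2, overlapped between the populations. Its means were 41.5 ± 2.02 and 41.8 ± 1.03 CPM (SD, n = 3 each), with a log2 fold change of 0.01 (SE 0.066), which became -0.08 with library size alone. With TMM, TUG1 thus had the smallest difference of the 9 tested members, whereas with library size alone GAS5 had it (-0.004).

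**Figure D1:**
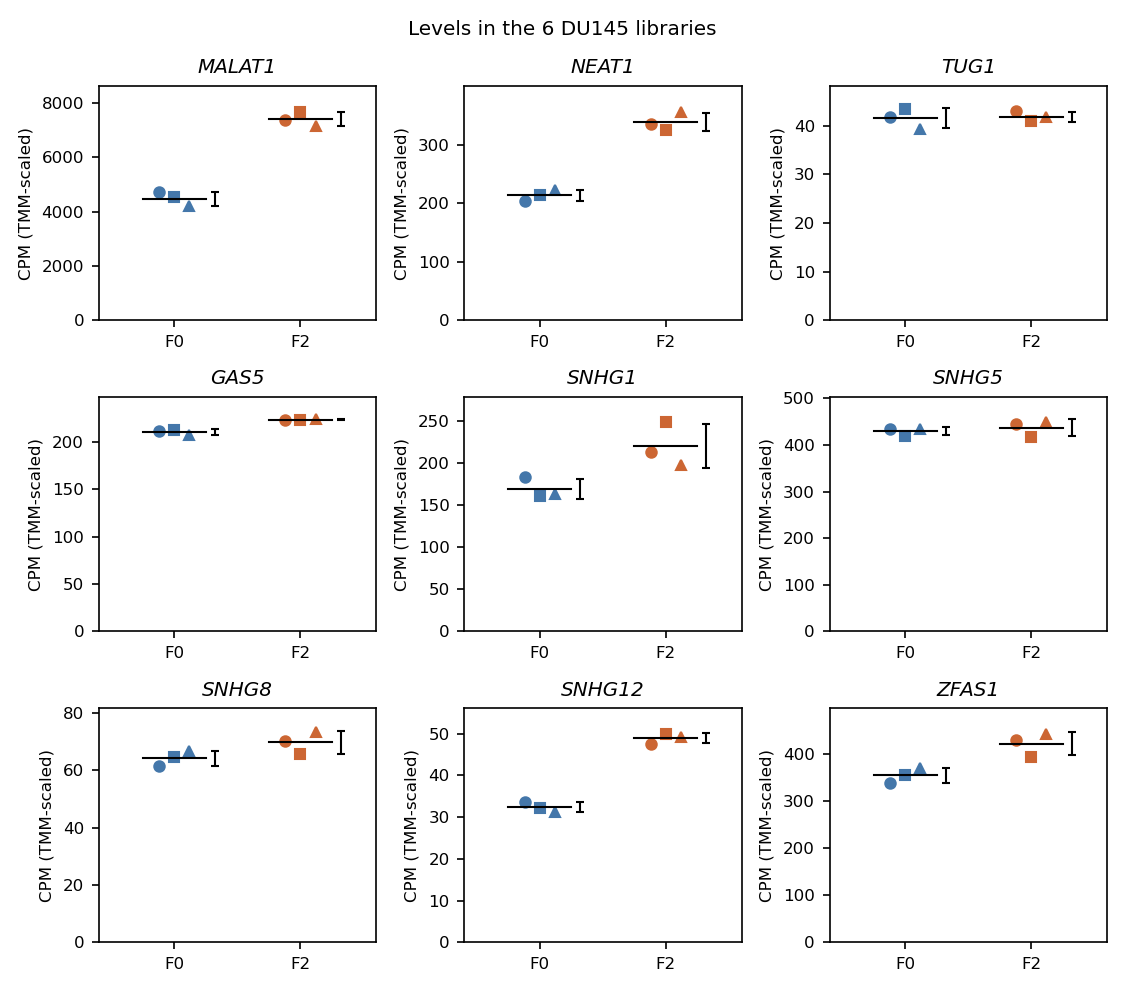
TMM-scaled CPM (vertical axes, from 0) of the 9 tested members in the 3 F0 (blue) and 3 F2 (orange) DU145 libraries. Circles, squares and triangles are replicates 1, 2 and 3, horizontal lines are means and bars are SD. The F2 libraries of MALAT1 lie between 7166 and 7664 CPM, above the F0 libraries at 4197 to 4710 CPM, and the 2 populations of TUG1 overlap.

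Among the hosts, SNHG12 had the largest difference. It carries H/ACA and C/D box snoRNAs in its introns. Its levels were 33.7, 32.2 and 31.3 CPM in F0 and 47.5, 49.9 and 49.2 CPM in F2. The populations were separate, with means of 32.4 ± 1.22 and 48.9 ± 1.22 CPM (SD, n = 3 each), a 1.51-fold difference and a log2 fold change of 0.59 (SE 0.066).

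SNHG1, the host of SNORD22, SNORD25 and SNORD30 among others, was at 183, 160 and 164 CPM in F0 and at 213, 249 and 198 CPM in F2. The populations did not overlap, but F2 was spread more widely, with F2 replicate 2 standing highest. The means were 169 ± 12.4 and 220 ± 26.2 CPM (SD, n = 3 each), 1.30-fold apart, with a log2 fold change of 0.38 (SE 0.068). The coefficient of variation in F2 was 11.9%, against a median of 5.18% over the 8650 tested genes that averaged 10 CPM or more. Leaving out each library in turn gave log2 fold changes of 0.28 to 0.45.

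ZFAS1, the host of the SNORD12 family, was at 339, 355 and 371 CPM in F0 and at 430.1, 395 and 443 CPM in F2. The lowest F2 library was above the highest F0 library. Means were 355 ± 16.3 and 423 ± 25.02 CPM (SD, n = 3 each), 1.19-fold apart, with a log2 fold change of 0.25 (SE 0.050).

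GAS5, which also binds the glucocorticoid receptor as a decoy, was at 212, 213 and 207 CPM in F0 and at 223, 223 and 224 CPM in F2. The populations did not overlap, yet the means of 210 ± 2.90 and 223 ± 0.653 CPM (SD, n = 3 each) were 1.06-fold apart and the difference did not pass the threshold (log2 fold change 0.09, SE 0.043, or 0.00 with library size alone). Of the 9 tested members 6 had populations that did not overlap, as did 34% of all tested genes.

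SNHG5, the host of SNORD50B, was at 435, 419 and 435 CPM in F0 and at 445, 417 and 450.5 CPM in F2. These overlapped, with means of 430 ± 9.12 and 437 ± 18.1 CPM and a log2 fold change of 0.03 (SE 0.044), or -0.06 with library size alone. SNHG8, the host of SNORA24, was at 61.5, 64.4 and 66.6 CPM in F0 and at 70.0, 65.5 and 73.5 CPM in F2, with a log2 fold change of 0.12 (SE 0.059). Its populations overlapped through F2 replicate 2, in which SNHG5, SNHG8 and ZFAS1 were at their lowest of F2 and SNHG1 and SNHG12 at their highest.

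The comparison of nuclear RNAs with hosts was made within libraries. The median log2 fold change was 0.69 for MALAT1 and NEAT1 and 0.18 for the 6 hosts, a difference of 0.51, and it was 0.00 over all tested genes. The summed level of MALAT1 and NEAT1 was 4693 ± 251 CPM in F0 and 7735 ± 236 CPM in F2, and that of the 6 hosts was 1261 ± 15.7 and 1422 ± 20.7 CPM (SD, n = 3 each). The log2 ratio of the first sum to the second was 1.96, 1.93 and 1.79 in F0 and 2.43, 2.51 and 2.39 in F2. Every F2 library lay above every F0 library, and the means differed by 0.55. MALAT1 supplied most of the nuclear sum. Of the hosts, SNHG12 came nearest the nuclear pair, and its log2 fold change of 0.59 (SE 0.066) lay within the combined standard errors of that of NEAT1.

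**Figure D2:**
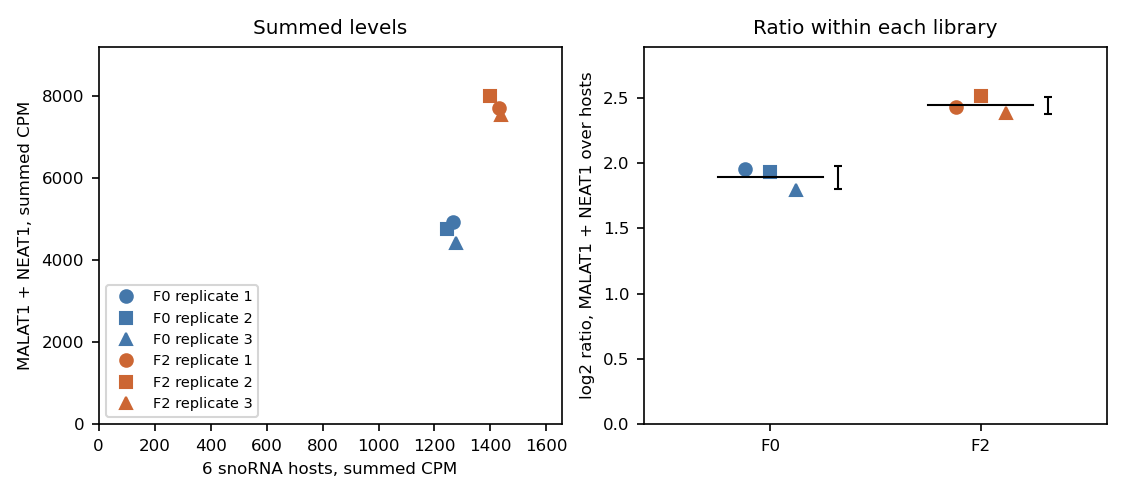
Left, summed CPM of MALAT1 and NEAT1 (vertical) against summed CPM of the 6 snoRNA hosts (horizontal) in each DU145 library, both axes from 0. Right, the log2 ratio of the same sums per library, with lines for means and bars for SD. The F2 libraries (orange) lie at ratios of 2.39 to 2.51 and the F0 libraries (blue) at 1.79 to 1.96.

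The other snoRNA hosts, listed with earlier results of these data known, did not move in 1 direction. Of 21 tested genes (4 of them, TAF1D, SNHG32, WDR43 and CWF19L1, annotated as protein coding), 3 rose, 5 fell and 13 did not pass, with a median log2 fold change of 0.00, as over all genes. With library size alone 2 rose and 6 fell, and SNHG15 did not pass. TAF1D, a subunit of the RNA polymerase I factor SL1, rose from 206 ± 0.847 to 252 ± 13.4 CPM (log2 fold change 0.29). SNHG32 rose from 209 ± 8.94 to 249 ± 7.93 CPM (0.25) and SNHG15 from 40.3 ± 1.54 to 47.4 ± 3.61 CPM (0.23). SNHG25 fell from 1168 ± 68.3 to 732 ± 46.4 CPM (log2 fold change -0.67, adjusted p = 1.5e-08, edgeR), as far down as NEAT1 was up. SNHG9 fell from 76.0 ± 1.06 to 61.1 ± 2.30 CPM (-0.32) and SNHG14 from 35.6 ± 1.31 to 29.5 ± 1.14 CPM (-0.27). DANCR and SNHG7 also fell. SNHG6, SNHG29, SNHG16 and SNHG3 did not pass and had log2 fold changes of 0.02, 0.00, 0.08 and -0.03.

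**Figure D3:**
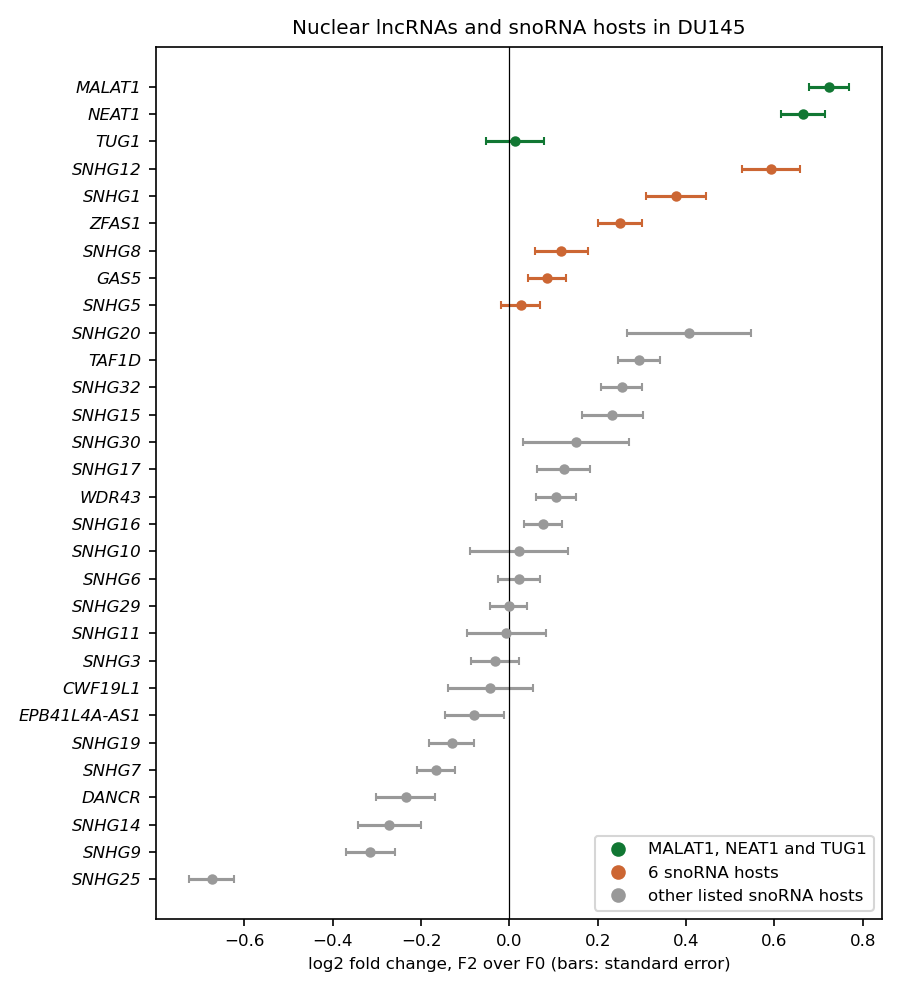
Log2 fold change of F2 over F0 DU145 (horizontal axis) with its standard error, for MALAT1, NEAT1 and TUG1 (green), the 6 snoRNA hosts (orange) and 21 other listed snoRNA hosts (grey), each set in order of size. The other hosts run from -0.67 (SNHG25) to 0.41 (SNHG20), on both sides of 0.

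Hosts found by position in the annotation, a set that includes the other hosts above, also moved in both directions. Of 64 noncoding genes outside the members that enclose a snoRNA on their strand, 29 were tested, of which 2 rose and 5 fell (median log2 fold change 0.00, or 1 and 6 with library size alone). Of these called genes only SCARNA9 was not among the other hosts above. Of 220 tested protein-coding hosts, 19 rose and 25 fell (median -0.01), or 13 and 66 with library size alone. The snoRNAs inside the member hosts were almost absent. Of the 16 snoRNA genes in the table that lie inside member hosts, 12 were at 0 in all 6 libraries, and all 16 together had 1, 14 and 6 counts in F0 and 12, 6 and 10 counts in F2. SNORD99, in an SNHG12 intron, had 0, 9 and 3 counts in F0 and 8, 3 and 8 in F2. Of all 923 snoRNA genes listed, 20 had enough counts to be tested. Of these 3 rose and 1 fell under both scalings (20.0% with TMM, against 18.2% of all tested genes). SnoRNAs carry no poly(A) tail, and their levels could not be read from this assay. The annotation used here placed none inside GAS5.

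Of the genes beside or across from the members, SLC3A2 went the opposite way from its neighbour and ZNFX1 the same way. SLC3A2, the heavy chain of amino acid transporters, starts 188 bp from SNHG1 on the opposite strand. It was lower in F2 (285 ± 9.90 against 238 ± 10.9 CPM, log2 fold change -0.26, adjusted p = 0.00067, edgeR), where SNHG1 was higher. ZNFX1, a helicase that senses viral RNA, overlaps ZFAS1 on the opposite strand and rose from 138 ± 4.12 to 157 ± 13.7 CPM (log2 fold change 0.18, adjusted p = 0.032, edgeR). Its populations overlapped, with 1 library removed it passed in 2 of 6 fits, and with library size alone it did not pass (adjusted p = 0.25). TRNAU1AP, across from SNHG12, showed a log2 difference of 0.13 (adjusted p = 0.27, edgeR), ZBTB37, across from GAS5, -0.17 (0.43), PRSS12, 215 bp from SNHG8, -0.20 (0.34), and MORC2, 947 bp from TUG1, -0.01 (0.95). Whether the counting used strand is not stated. Reads of KCNQ1OT1, ZFAS1, SNHG12 and GAS5 that overlap an opposite gene therefore cannot be told apart from that gene's. Around MALAT1 and NEAT1 on chromosome 11, FRMD8 and LTBP3 had log2 fold changes of 0.08 and -0.21 and did not pass the threshold (adjusted p = 0.42 and 0.055, edgeR). Reads in the small RNA annotations inside MALAT1 and NEAT1, which would be ambiguous between the small RNA and its host, were listed at 0.

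The mRNAs for proteins of the nuclear bodies changed by less than MALAT1 and NEAT1. Of those for 21 paraspeckle proteins, 2 rose and 2 fell, with a median log2 fold change of -0.03, whereas with library size alone 0 rose and 9 fell (-0.12). RBM14, which NEAT1 paraspeckles need for assembly, fell from 41.3 ± 3.71 to 33.9 ± 1.16 CPM (-0.29, adjusted p = 0.011, edgeR) and TAF15 from 167 ± 7.37 to 144 ± 8.86 CPM (-0.21). The cold-inducible RNA-binding proteins CIRBP and RBM3 rose by 0.17 and 0.13 and did not pass with library size alone. The core proteins SFPQ, NONO and PSPC1 had log2 fold changes of 0.03, -0.04 and -0.14 and did not pass, though with library size alone NONO and PSPC1 passed as lower. Of mRNAs for 24 speckle proteins, 5 rose, none fell and 19 had a positive log2 fold change (median 0.08), whereas with library size alone 1 rose (PRPF4B), 2 fell and 11 were positive (median -0.01). PRPF4B, a kinase of splicing factors, rose from 172 ± 7.41 to 230 ± 4.19 CPM (0.42, adjusted p = 3e-06, edgeR), LUC7L3 by 0.19 and SRSF11 by 0.19.

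Of 19 snoRNP proteins, which assemble snoRNAs into working particles, 1 rose and 5 fell (median -0.08), or 1 and 9 with library size alone. NOP56, a core protein of C/D box snoRNPs whose own introns hold snoRNAs, rose from 205 ± 12.1 to 252 ± 8.40 CPM (0.30). The assembly factors SHQ1 and RUVBL1 fell by 0.34 and 0.30 on the log2 scale, and RUVBL2 by 0.18, though with 1 library removed RUVBL2 passed in 0 of 6 fits. Of 20 NMD factors, 1 rose (UPF3A, log2 fold change 0.40 at 8.59 to 11.4 CPM) and 1 fell (EIF4A3, -0.15), with a median of -0.03, or 0 and 3 with library size alone. UPF1, the helicase at the centre of NMD, had a log2 fold change of -0.10 and did not pass. Of 22 genes of nuclear RNA decay and processing, 2 rose and 3 fell (median -0.01), or 1 (DGCR8) and 6 with library size alone. DGCR8, which binds primary microRNA hairpins for Drosha, rose from 22.3 ± 1.08 to 34.1 ± 3.08 CPM (0.62, adjusted p = 2.7e-05, edgeR), and METTL3, the m6A methyltransferase, by 0.24. MTREX, the helicase that feeds RNA to the nuclear exosome, fell from 87.2 ± 3.41 to 66.3 ± 0.450 CPM (-0.40, adjusted p = 2.7e-05, edgeR). METTL14 and METTL16 fell by 0.26 and 0.25.

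By the definition set after the sequences had been seen, 41 of the 50 TOP mRNAs and all 6 hosts had the pyrimidine start. By the planned definition 45 TOP mRNAs and 2 hosts had it. Of the 50 TOP mRNAs, 3 rose and 9 fell, 34 had a negative log2 fold change, and the median was -0.05. With library size alone 0 rose and 25 fell (median -0.14). EEF1A1, a translation elongation factor, fell from 429 ± 6.70 to 350.2 ± 3.46 CPM (-0.29), RACK1 by 0.19 and RPS3 by 0.19. EEF1B2, RPL26 and FAU rose by 0.15, 0.14 and 0.13.

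**Figure D4:**
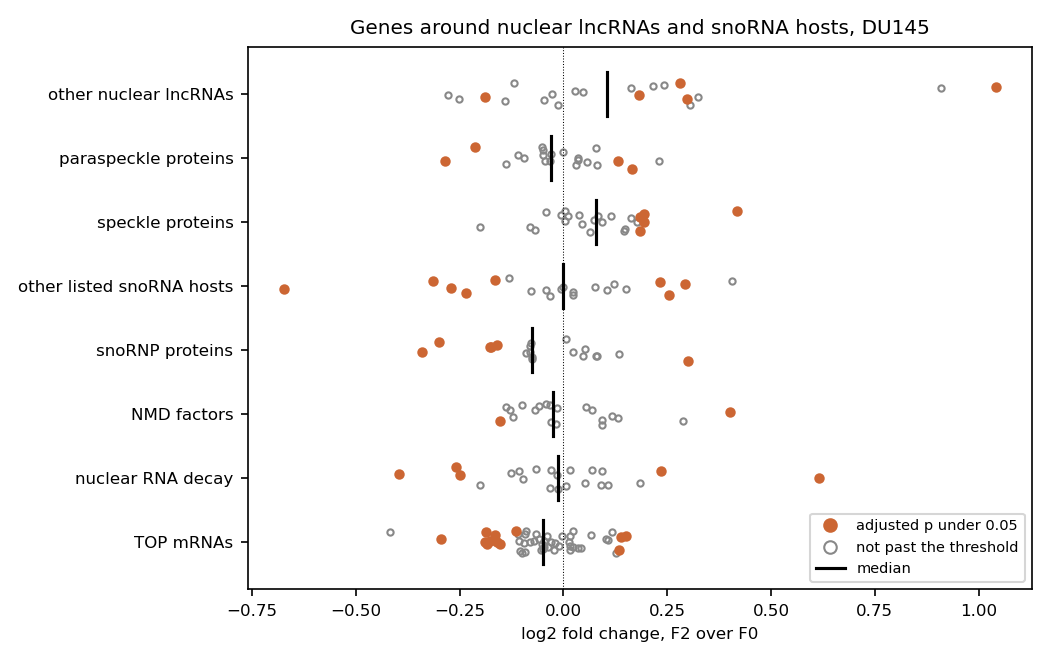
Log2 fold change of F2 over F0 DU145 (horizontal axis) of each tested gene in 8 lists. Filled orange circles passed an adjusted p of 0.05 (edgeR), open grey circles did not, and black lines are list medians. Medians lie between -0.08 (snoRNP proteins) and 0.10 (other nuclear lncRNAs, a list that also holds the cytoplasmic NORAD), against 0.69 for MALAT1 and NEAT1.

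Other nuclear or chromatin-associated lncRNAs did not follow MALAT1 and NEAT1 as a set. Of 20 tested, 4 rose and 1 fell (median 0.10), or 2 and 3 with library size alone (median 0.02), where PVT1 and JPX did not pass. CYTOR rose from 76.8 ± 3.03 to 94.5 ± 6.75 CPM (log2 fold change 0.30), PVT1, beside MYC, from 41.8 ± 4.52 to 50.8 ± 2.16 CPM (0.28) and JPX, an activator of X inactivation, by 0.18, though with 1 library removed JPX passed in 0 of 6 fits. MIR17HG, the host of the miR-17 cluster, rose at a low level, from 1.47 ± 0.203 to 3.04 ± 1.01 CPM. FGD5-AS1 fell by 0.19. NORAD, which sequesters Pumilio proteins in the cytoplasm, and OIP5-AS1 had log2 fold changes of -0.14 and -0.03 and did not pass. Of all 1427 tested lncRNA genes outside the members, 102 rose and 45 fell, with a median log2 fold change of 0.04 (81 and 89 with library size alone, median -0.05), against 1189 and 1185 of 12043 protein-coding genes (median -0.01, or 692 and 2690 with library size alone).

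The genes whose levels over the 6 libraries lay nearest the mean profile of MALAT1 and NEAT1, by root mean square distance of centred log2 CPM among 8650 genes, were PITPNC1 (distance 0.034), TNIK (0.039), STC1 (0.040), DNTTIP1 (0.040) and COL13A1 (0.041). PITPNC1, a phosphatidylinositol transfer protein, had 27.2 CPM (F0) and 44.6 CPM (F2), and STC1, which encodes the secreted glycoprotein stanniocalcin 1, at 30.7 and 49.2 CPM. Nearest the 6 hosts were FEZ2 (distance 0.014), ZNF503 (0.015), MBNL1 (0.016), DPP9 (0.016) and SMC4 (0.022). MBNL1, a splicing regulator, had 311 CPM (F0) and 360.0 CPM (F2), and SMC4, a condensin subunit, at 687 and 813 CPM. With 6 libraries in 2 populations such distances mostly rank genes by the size of their F2 against F0 difference.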

How the data were processed

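The authors sequenced QuantSeq 3′ libraries of F0 and F2 DU145, aligned and counted them with Bluebee, and deposited unnormalized raw counts per gene. The submitters' processing notes name STAR 2.5.2a, HTSeq 0.6.0 and GRCh38. The annotation and strand setting are not given in the sources used here. PCR duplicates remain in the counts. PAIII, a rat line, was not analysed here, since no table used here pairs its identifiers with symbols.

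From the deposited counts, lines that name no gene stayed out of library sizes. Of 60107 genes, 14316 passed filterByExpr at a count of 10 and a total of 15, and these were scaled by TMM and tested between F2 and F0 without covariates by the quasi-likelihood F-test of edgeR 4.0.16 (limma 3.58.1, R 4.3.3), two-sided, at a Benjamini-Hochberg adjusted p of 0.05. The model was checked on simulated counts. A level was at the floor at 3 counts or fewer per library. With 3 against 3 libraries a single-gene exact permutation test cannot go below 0.1, so none was run. GENCODE release 29 gave positions and types for 56531 genes. Promoter sequences were not analysed here, and transcript starts from GENCODE took their place after the files had been seen.

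The members and lists were chosen with earlier results of these data known. Named genes are the members, the snoRNAs inside them, tested neighbours, up to 3 rises and 3 falls per list (called genes averaging 10 CPM or more), and the 5 genes nearest each profile. DANCR, SNHG7, UPF3A, MIR17HG and genes given as not passing were named after their values were seen. Alternatives were median-ratio size factors, library size alone, no filter, at least 10 counts in every library, DESeq2 1.42.0, a replicate block, no mitochondrially encoded genes and each library left out.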

Additional observations from a re-analysis of the deposited data

How the results depend on the processing

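Under 13 alternatives each tested member kept its side of the threshold. Since the members were chosen on this contrast in the same libraries, nothing is read from that. All tested members kept their direction except 3 that had not passed. With library size alone the log2 fold change was -0.078 for TUG1, -0.004 for GAS5 and -0.064 for SNHG5, and leaving out each library in turn gave -0.026 to 0.043 for TUG1. With library size alone the median log2 fold change was -0.09 for all genes, 0.605 for MALAT1 and NEAT1 and 0.095 for the 6 member hosts. The difference between this nuclear pair and the 6 member hosts was again 0.51, but a change of scaling shifts all genes alike and cannot move it. Leaving out each library in turn gave differences from 0.473 (without F0 replicate 3) to 0.543 (without F0 replicate 1). The median of the other hosts was -0.091. Leaving out each library in turn gave 1670 to 2621 genes past the threshold, against 2599 with all libraries, and 5 to 8 of the other hosts against 8. The lowest of both came without F0 replicate 2, and 1757 genes passed without F2 replicate 1. DESeq2 called 2091 genes and library size alone 3637, of which 2805 were lower in F2. Under that scaling SNHG15, PVT1, JPX, RBM3, CIRBP, SRSF11, LUC7L3, UPF3A, METTL3, RPL26, EEF1B2, FAU, ZNFX1, KRT8 and KRT18 did not pass. CDKN1C, LTBP3, NONO, PSPC1, UPF1 and NORAD, which had not passed with TMM, passed under it as lower in F2. Samples with the same replicate number did not deviate together (correlations of 0.01, -0.01 and 0.03), and a replicate block gave 2867 genes and changed the call of no member. Alternatives for PAIII were not run. KCNQ1OT1 was under the floor of 3 counts, so depth limits what can be said of it. So does the unstated strand setting of the counting, since KCNQ1OT1 overlaps KCNQ1 on the opposite strand. Most snoRNAs inside the hosts were under the floor too, and lacking a poly(A) tail they could not be read from this assay. With 1 library removed, called genes with small differences were often lost. JPX and RUVBL2 passed in 0 of 6 such fits, RBM3 in 1, and CIRBP, EIF4A3, METTL14, RPS3, ZNFX1 and FGD5-AS1 in 2. SNHG15, DANCR, PVT1, UPF3A, EEF1B2, RPL26, FAU and KRT8 passed in 3, SNHG14 and METTL3 in 4, and SNHG7, RBM14, TAF15, METTL16 and MIR17HG in 5. The other called genes named from the lists passed in 6 of 6.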

Other observations

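Among other lncRNAs that averaged 10 CPM or more and whose populations did not overlap, the 5 largest rises and falls past the threshold were taken after the values had been seen. SCARNA9, named for a Cajal body RNA, rose from 20.3 ± 1.37 to 38.8 ± 4.27 CPM (SD, n = 3 each, log2 fold change 0.93, adjusted p = 3e-07, edgeR). MIR23AHG, the host of the miR-23a cluster, rose from 12.4 ± 0.920 to 23.6 ± 2.68 CPM (0.92), PPP1R14B-AS1 from 25.7 ± 1.67 to 40.3 ± 1.89 CPM (0.65) and SFTA1P from 52.9 ± 2.12 to 81.6 ± 10.4 CPM (0.62). SNHG25 had the largest fall of this set, and the others had no symbol in the table used here. Of 110 tested genes annotated as sense intronic, 79 had a positive log2 fold change, 11 rose and 2 fell (median 0.15, against 0.00 over all genes, or 0.07 against -0.09 with library size alone), while reads outside genes went from 9.60% to 10.0% in F0 to 11.3% to 11.9% in F2. The part of these reads in that median was not tested.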
